A study of Sus scrofa with 35 samples.

Results

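Gene expression in the longissimus dorsi, the long back muscle of the pig, was compared between F1 pigs, which are Large White×Créole crosses, and pigs of their Large White parent breed. The comparison took 23 of the 35 arrays of the series, those whose titles give the breed as F1 (11 arrays) or LW (12 arrays), with temperature as a covariate and all 40649 probes of the deposited table. Each array measured total RNA of 1 castrated male growing pig. The groups were F1 thermoneutral (TN, 24 °C, n = 6), F1 heat stress (HS, n = 5), Large White TN (n = 6) and Large White HS (n = 6). The HS samples are labelled 30 °C, whereas the growth protocol gives 5 days at 32 °C. The pigs were raised in Guadeloupe and moved to a climatic room at 11 weeks of age, and TN pigs were slaughtered before the temperature rose. Pigs of 1 breed shared pens and came from blocks of littermates, and neither pen nor litter is in the labels, so p-values treat littermates as independent pigs. Which breed was the dam of the cross is not stated. The 12 Creole arrays entered the fit only to share the estimates of the spread and of the temperature effect, and their levels are given beside those of F1 and Large White as values. They bear on the calls: fitted on the 23 arrays alone, 197 probes were called in place of 222, of which 146 were shared, and CYCS, SELENOF, ART5, MIC-2, PDE7A, HLA-E, OAZ3 and SLA-6 were not called.

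Large White is a white, fast-growing commercial breed and Créole is a pigmented local breed of the Caribbean. A first cross carries 1 nuclear genome copy from each breed, whereas its mitochondrial genome comes from the dam alone. Imprinted genes are expressed from the copy of 1 parent. A 60-base array probe reads the amount of a transcript and, where alleles differ under the probe, also how well that allele binds, and these cannot be told apart from intensity alone.

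The tissue label was checked against myofibre markers: all 8 defining myofibre genes were well above background on all 23 arrays. Per array, the probes well above background made up 58.4% to 73.9%, no spot was saturated, and every slide that held F1 arrays also held Large White arrays. Slide 5 held 2 Large White TN arrays and no F1 array. Of 12 array measures compared by a two-sided permutation test with breed labels permuted within temperature, the mean level of the connective tissue markers was lower in F1 (12.20 ± 0.16 against 12.40 ± 0.15 log2 units, SD, n = 11 and 12, range 11.98 to 12.49 against 12.10 to 12.64, Benjamini-Hochberg adjusted p = 0.00396). Of the 14 connective tissue markers measured, 10 were lower in F1. The adipocyte marker mean was 10.23 ± 0.42 in F1 and 10.55 ± 0.24 in Large White (adjusted p = 0.111 in the permutation test), and the endothelial mean was 10.06 ± 0.23 and 10.25 ± 0.20 (adjusted p = 0.111 in the permutation test). In a bulk sample, fewer cells of a type and less RNA per cell cannot be told apart.

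Of the 40649 probes, 222 differed between F1 and Large White at an adjusted p of 0.05 in limma's moderated test (percent called 0.546%), 111 higher in F1 (0.273%) and 111 lower (0.273%). Not every scaling kept this balance. Scaling each array to its median called 84 probes up in F1 against 269 down, and scaling to the spike-in probes called 39 up against 389 down. These 222 probes included 112 with 1 gene symbol, which named 69 genes. By gene, 34 were only higher in F1, 34 were only lower, and AKR1C1 had probes called in both directions. The median size of a called difference was 0.58 log2 units. Past 2-fold were 20 probes higher in F1 and 22 lower. The direction was the same within all 4 slides that held both breeds for 201 of the 222 probes, and within at least 3 of them for all 222. The probes were called on these same arrays, which favours such agreement, so it is no separate test. With slide as a block, 9 of the 34 called genes named here were no longer called, namely SELENOF, ART5, PDE7A, CYTB, HLA-E, OAZ3, DCPS, GSN and MDH2. Only 1 probe of the table (0.00246%) had F1 and Large White arrays that did not overlap, a probe for the mitochondrial gene ND2.

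**Figure D1:**
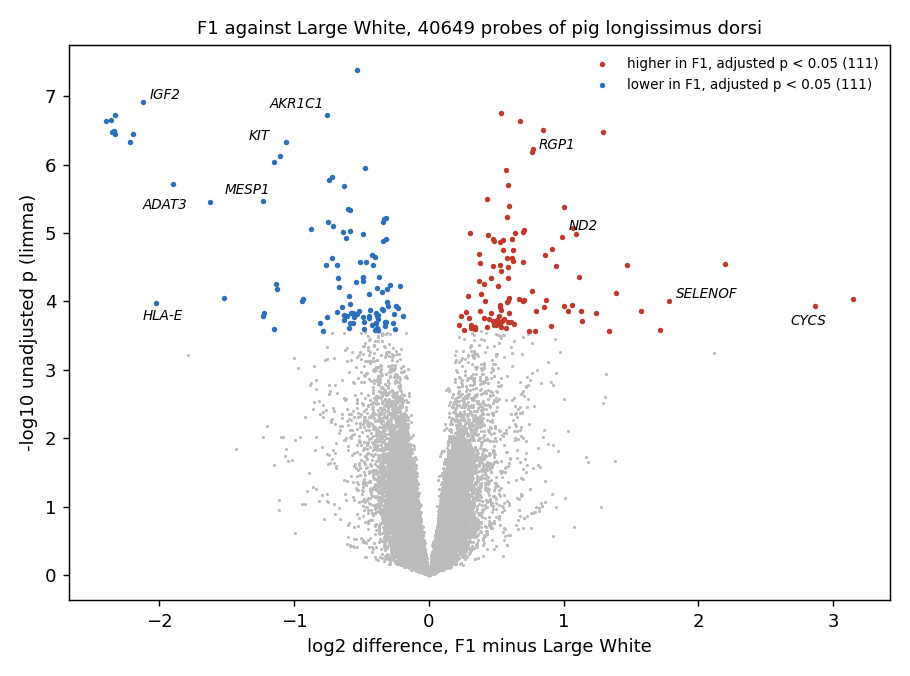
Log2 difference between F1 and Large White (x axis) against −log10 of the unadjusted limma p (y axis) for the 40649 probes, with probes at an adjusted p under 0.05 in red (111 higher in F1) and blue (111 lower). The group of blue points at the upper left, below −2, is made mostly of the 8 IGF2 probes, and CYCS and SELENOF stand at the right through 1 probe each.

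IGF2, the insulin-like growth factor that drives fetal and muscle growth and is imprinted in mammals, was the gene with the largest fall. All 8 of its probes (7 distinct sequences) were lower in F1, with log2 differences from −2.39 to −2.12. On its brightest probe the F1 arrays ran from 14.36 through a median of 15.28 to 17.68, and the Large White arrays from 17.15 through 17.52 to 17.87 log2 intensity. The difference was −2.12 ± 0.32 (SE) with an adjusted p of 0.00104 (limma), 4.35-fold higher in Large White. The F1 arrays were not of 1 kind: 10 of 11 were below the lowest Large White array, and the library labelled F1 HS replicate 3 stood at 17.68, inside the Large White range. That array was at or above the lowest Large White array on all 8 probes. The 12 Creole arrays also split. In Creole, 9 arrays lay between 14.83 and 15.48 on this probe, and TN replicate 6, HS replicate 5 and HS replicate 6 lay between 17.46 and 17.75. The SD was 0.85 in F1, 0.19 in Large White and 1.11 in Creole. The difference was −2.29 ± 0.45 at TN and −1.94 ± 0.47 at HS.

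Of the IGF2 probes, 1 pair is identical and another pair shares 38 bases, so the 8 probes are not all separate readings. The following pair of probes within the coding sequence, shown because they read separate stretches and both fell, are printed 5′ to 3′ from the array files.
IGF2 probe A_72_P544532, lower in F1 by a log2 difference of −2.39: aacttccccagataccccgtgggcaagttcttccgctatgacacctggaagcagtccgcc
IGF2 probe A_72_P537644, with a log2 difference of −2.19: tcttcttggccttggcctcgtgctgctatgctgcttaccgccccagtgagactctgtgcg

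The same 4 arrays outside Large White, 1 F1 and 3 Creole, stood at the Large White level on 4 other called probes that are not named IGF2, chosen after their values were seen. A probe carrying the human gene name ADAT3, a subunit of a tRNA-editing deaminase, differed by −1.62 ± 0.29 (adjusted p = 0.00476, limma), with F1 HS replicate 3 at 11.81 and the other F1 arrays between 8.68 and 10.12. A probe for MESP1, a mesoderm transcription factor, differed by −1.23 ± 0.22 (adjusted p = 0.00474, limma), with F1 HS replicate 3 at 13.06 and the other F1 arrays between 11.09 and 11.69. The other MESP1 probe differed by 0.13 and was not called, so the 2 MESP1 probes disagree. The remaining pair were unnamed probes (A_72_P155326 and A_72_P113676) with log2 differences of −2.32 and −1.89. No genome was used, so where these probes lie was not determined.

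Of the other members of the growth and IGF axis, none of the 19 measured genes was called. Calls were few in general, with 69 of all 10631 named genes having a called probe. IGF1 differed by −0.10 (adjusted p = 0.73), IGF1R by 0.10 (adjusted p = 0.82), IGFBP6, an IGF-binding protein, by −0.40 (adjusted p = 0.10) and MSTN, the inhibitor of muscle growth myostatin, by 0.09 (adjusted p = 0.89), all by limma. By brightest probe the list had a median of −0.14, with 4 of 20 genes higher in F1, against a median of −0.01 and 46.6% higher over all 10631 named genes.

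KIT, the receptor tyrosine kinase for stem cell factor, acts in melanocytes and mast cells and is a white coat colour locus in pigs. All 4 KIT probes were called lower in F1, with log2 differences from −1.15 to −0.60. On probe A_72_P441559 the F1 arrays lay at 7.71, 8.35 and 9.09 (lowest, median, highest) and the Large White arrays at 8.64, 9.33 and 10.50. The difference was −1.06 ± 0.17 (adjusted p = 0.0012, limma), 2.08-fold higher in Large White. Of the 11 F1 arrays, 10 were below the lowest Large White array. The Creole arrays, from 7.20 to 8.19, were all below the lowest Large White array. A pair of the KIT probes share 57 bases without a difference and gave log2 differences of −0.60 and −0.74.
KIT probe A_72_P180731: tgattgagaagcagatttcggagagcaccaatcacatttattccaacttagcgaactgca
KIT probe O299: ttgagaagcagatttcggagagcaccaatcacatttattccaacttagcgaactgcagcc

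Among the mast cell and melanocyte markers KIT was the gene that differed. The mean of the 6 measured markers was lower in F1 by 0.16 log2 units (adjusted p = 0.00474 in the permutation test), whereas their median difference was 0.02, and −0.06 under spike-in scaling. Without KIT, the mean of the other 5 genes (MS4A2, HDC, GATA2, DCT and MITF) was 7.65 ± 0.11 in F1 and 7.62 ± 0.09 in Large White, a difference of 0.04.

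**Figure D2:**
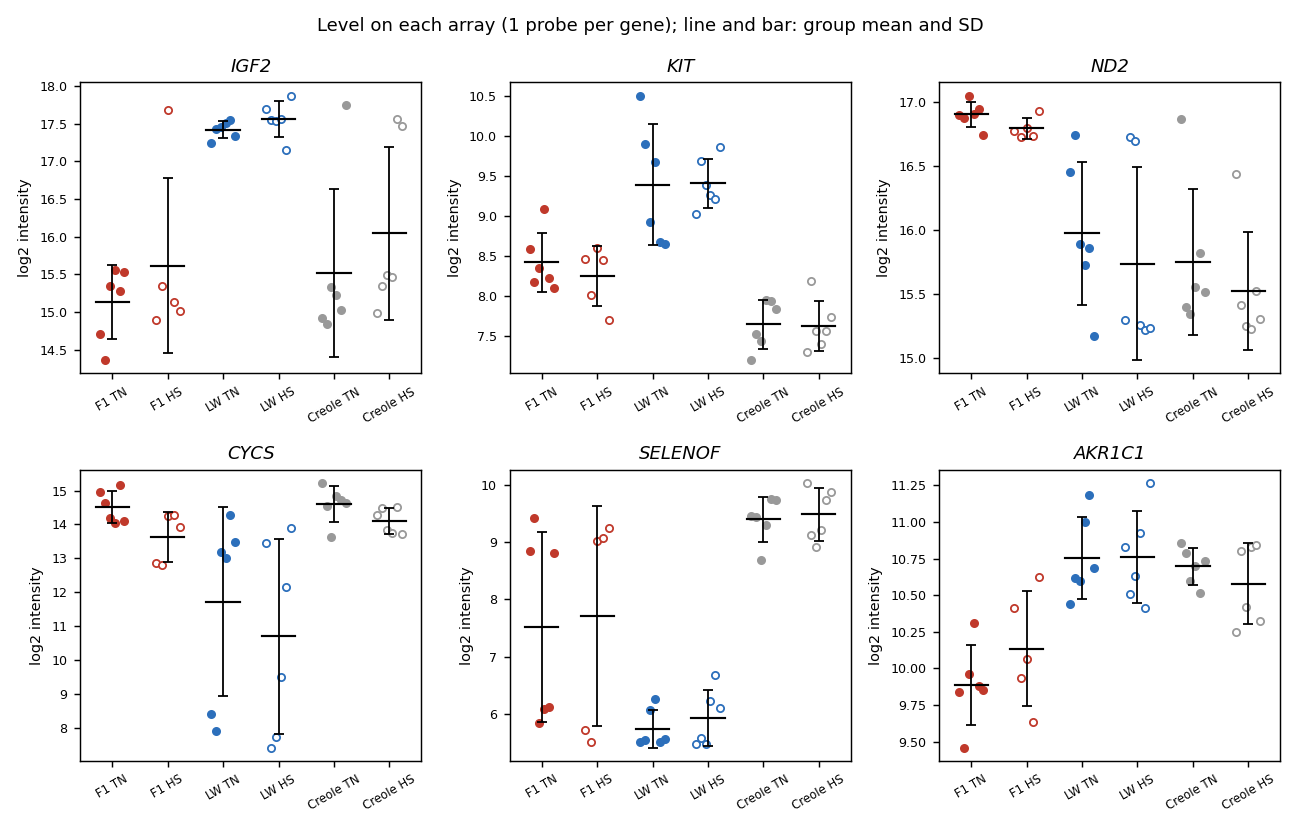
Log2 intensity (y axis) on each array for 1 probe of IGF2, KIT, ND2, CYCS, SELENOF and AKR1C1 in F1 (red), Large White (LW, blue) and Creole (grey), with TN filled and HS open; lines and bars are group means and SD. A single F1 HS array stands at the Large White level for IGF2, 6 of 11 F1 arrays stand above every Large White array for SELENOF, and the Large White arrays of CYCS and ND2 are spread far wider than those of F1.

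AKR1C1, an aldo-keto reductase that inactivates progesterone, had 7 probes that did not move together. AKR1C genes are a family of near-identical copies, so the probes may read more than 1 of them. On probe A_72_P672532 the F1 arrays lay at 9.46, 9.94 and 10.62 (lowest, median, highest) and the Large White arrays at 10.41, 10.66 and 11.27, with 9 of 11 F1 arrays below every Large White array. The difference was −0.76 ± 0.12 (adjusted p = 0.00104, limma). Creole arrays lay between 10.25 and 10.85, with a mean of 10.64 ± 0.21 (SD) beside 10.76 ± 0.28 in Large White. A second AKR1C1 probe that shares 47 identical bases gave −0.72. Probe A_72_P569209 went the other way, with a difference of 1.24 ± 0.29 (adjusted p = 0.039, limma), F1 arrays from 5.61 to 8.51 and Large White arrays from 5.57 to 8.54. Probe A_72_P440651, which matches it at 34 bases with 1 substitution between them, gave 1.32 ± 0.37 and was not called (adjusted p = 0.107, limma). The 4 sequences are shown because the pairs moved in opposite directions, with the substituted base in capitals.
AKR1C1 probe A_72_P672532: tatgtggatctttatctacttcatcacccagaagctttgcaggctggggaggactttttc
AKR1C1 probe A_72_P505297: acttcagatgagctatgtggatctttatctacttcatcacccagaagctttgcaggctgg
AKR1C1 probe A_72_P569209: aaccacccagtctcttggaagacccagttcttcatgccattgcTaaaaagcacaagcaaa
AKR1C1 probe A_72_P440651: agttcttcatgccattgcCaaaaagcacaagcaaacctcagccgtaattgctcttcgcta

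SELENOF, a selenoprotein of the endoplasmic reticulum, was called on 1 of 6 probes. On that probe the F1 arrays fell into 6 between 8.80 and 9.42 and 5 between 5.51 and 6.11, with TN and HS arrays in both. The Large White arrays ran from 5.48 to 6.68 and the Creole arrays from 8.69 to 10.04, so every Creole array was above every Large White array and the F1 arrays lay on both sides. The difference was 1.78 ± 0.41 (adjusted p = 0.0334, limma), and the probe was well above background on 10 of 11 F1 arrays and 9 of 12 Large White arrays. On the other 5 SELENOF probes the differences were between −0.34 and −0.15 and none was called. Probe A_72_P562884 matches the called probe at 28 bases with 2 substitutions between them, and its F1 arrays lay between 11.05 and 12.01 and its Large White arrays between 10.94 and 12.46, with the groups overlapping throughout. In the 30-base stretches below, capitals mark the bases that differ.
SELENOF probe CUST_56_PI427286967, with a log2 difference of 1.78: tctAccattgatcagtctcttaccgAgagg
SELENOF probe A_72_P562884, with a log2 difference of −0.34: tctTccattgatcagtctcttaccgTgagg

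PRDX4, a peroxiredoxin of the secretory pathway, had 6 probes with differences from −0.34 to −0.27, of which 2 were called. Its named probe had a mean of 12.33 ± 0.14 in F1 and 12.65 ± 0.24 in Large White (adjusted p = 0.0389, limma). SOD2, the mitochondrial superoxide dismutase, differed by −0.31 ± 0.10 and was not called (adjusted p = 0.168, limma). Of the 40 antioxidant and aldo-keto reductase genes measured, 16 were higher in F1 by brightest probe and the median was −0.08.

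The mitochondrial genome encodes 13 subunits of the respiratory chain and of ATP synthase, read here by 127 probes. Of these, 23 were called higher in F1 and 0 lower by limma, where 0.273% of all probes were called in each direction. The named probes of ND1, ND2, COX1, COX3 and CYTB were not called with the connective tissue marker mean, which was lower in F1, as a covariate, and those of ND1, COX1, COX3 and CYTB not under 75th percentile scaling. Under spike-in scaling those of COX1, COX3 and CYTB were not called. The part of the connective tissue markers in these differences was not tested. The called probes belonged to ND1 (9 of 20 probes), ND2 (7 of 12), CYTB (4 of 21), COX1 (2 of 25) and COX3 (1 of 14). ND1 and ND2 are subunits of complex I, CYTB of complex III, and COX1 and COX3 of complex IV. In all, 114 of 127 probes were higher in F1, with differences from −0.13 to 2.20 and a median of 0.18. By the brightest probe of each gene, 0 of 13 were called by limma (9 higher and 0 lower at an unadjusted p under 0.05) and 12 of 13 were higher, with a median of 0.11.

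Probes of a single mitochondrial gene gave unlike differences. On ND2 probe A_72_P719508 the F1 arrays lay between 16.46 and 16.81 (median 16.59), the Large White arrays between 12.66 and 16.33 (median 13.94) and the Creole arrays between 12.55 and 16.49 (median 13.72). The difference was 2.20 ± 0.46 (adjusted p = 0.0149, limma). On the brightest ND2 probe it was 0.30 ± 0.10 and not called (adjusted p = 0.205, limma). On COX1 probe A_72_P762153 the difference was 1.71 ± 0.42 (adjusted p = 0.0492, limma), with F1 arrays from 17.14 to 17.57 and Large White arrays from 13.95 to 17.45. COX1 probe A_72_P721538, which matches it at 53 bases, differed by 0.17 (adjusted p = 0.299, limma), with F1 arrays from 18.29 to 18.44 and Large White arrays from 17.56 to 18.40.

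The arrays of the F1 group were close together on these probes. The SD was smaller in F1 than in Large White on 124 of the 127 probes, against 65.3% of all probes. Large White arrays fell into those that reached the F1 range and those that did not: of the 23 called mitochondrial probes, TN replicate 1 was within or above the F1 range on 16, TN replicate 2 on 20, HS replicate 2 on 14 and HS replicate 3 on 19. The other 8 Large White arrays reached it on 0 or 1. Among Creole arrays, TN replicate 1 reached the F1 range on 23 of 23, HS replicate 1 on 3 and TN replicate 5 on 2. Of the 4 Large White arrays, TN replicate 1 was on slide 1 and the other 3 were all the Large White arrays of slide 2, so slide and pig cannot be told apart there. The 3 Creole arrays of slide 2 reached the F1 range on 0 probes. Within slides, the difference on ND2 probe A_72_P719508 was 2.03, 0.29, 2.85 and 2.89 for slides 1 to 4. On slide 2 the named probes of COX1, COX3 and CYTB were lower in F1 (−0.13, −0.02 and −0.10). Those of ND1 and ND2 were higher there (0.04 and 0.11).

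Overlapping mitochondrial probes are shown because pairs that read nearly the same stretch gave unlike differences. Among 81 pairs of probes matching at 30 bases or more, 10 were identical over the shared stretch and 71 had at least 1 edit. The gap between the log2 differences of a pair had a median of 0.08 in identical pairs and 0.06 in edited pairs, and reached 0.20 and 1.55. It was over 0.5 in 8 edited pairs and in 0 identical pairs. With 10 identical pairs, these counts cannot tell whether edits go with wider gaps. In the ND1 pair below, the only difference is 1 inserted base near the start of the shared stretch. Capitals mark the bases that differ within the shared stretch, where the place of an inserted base within a run of the same base is arbitrary.
ND2 probe A_72_P719508, with a log2 difference of 2.20: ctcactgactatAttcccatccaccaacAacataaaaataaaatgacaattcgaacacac
ND2 probe A_72_P727968, with a log2 difference of 0.95: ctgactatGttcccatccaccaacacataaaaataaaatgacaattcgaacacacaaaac
COX1 probe A_72_P762153, with a log2 difference of 1.71: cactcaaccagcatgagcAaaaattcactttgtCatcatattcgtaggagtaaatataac
COX1 probe A_72_P721538, with a log2 difference of 0.17: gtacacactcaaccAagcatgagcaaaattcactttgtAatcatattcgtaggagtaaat
ND1 probe A_72_P745561, with a log2 difference of 1.57: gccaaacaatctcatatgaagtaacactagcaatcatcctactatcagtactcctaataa
ND1 probe A_72_P754234, with a log2 difference of 0.85: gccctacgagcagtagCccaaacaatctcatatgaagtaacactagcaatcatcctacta

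**Figure D3:**
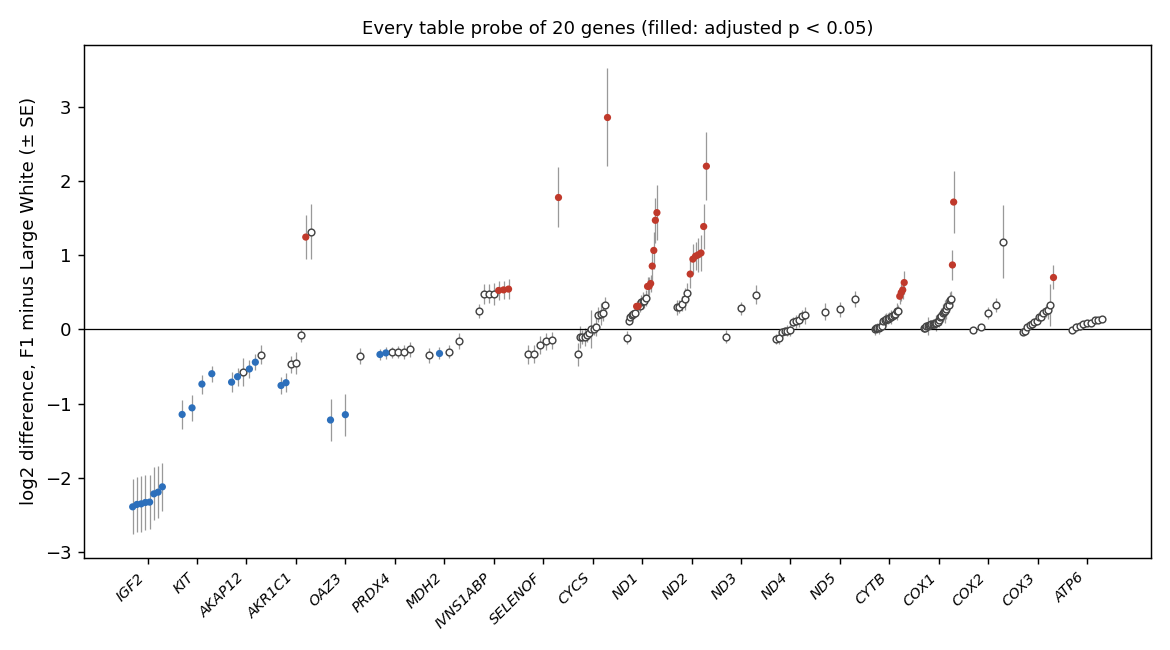
Log2 difference between F1 and Large White with its SE (y axis) for every table probe of 20 genes (x axis), with filled points at an adjusted p under 0.05. The 8 IGF2 and 4 KIT probes lie together below 0, whereas CYCS and SELENOF have 1 high probe each, and the ND1, ND2, CYTB, COX1 and COX3 probes run from near 0 upward.

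CYCS encodes cytochrome c, the electron carrier between complexes III and IV, and had 1 called probe of 14. On that probe the F1 arrays ran from 12.81 to 15.15 (median 14.18) and the Large White arrays from 7.43 to 14.27 (median 12.59). The Large White arrays below the lowest F1 array were TN replicate 1 (8.43), TN replicate 2 (7.92), HS replicate 2 (7.43), HS replicate 3 (7.75), HS replicate 4 (9.50) and HS replicate 5 (12.15). The first 4 of these are the Large White arrays that reached the F1 range on 14 or more of the called mitochondrial probes. TN replicate 2 and HS replicates 2 and 3 were all the Large White arrays of slide 2. Within slides 1 to 4 the difference on this CYCS probe was 2.60, 6.74, 2.55 and 0.93. The difference was 2.86 ± 0.66 (adjusted p = 0.0363, limma). On the other 13 CYCS probes it lay between −0.34 and 0.33 and none was called. A probe that matches the called one at 49 bases with 3 substitutions between them gave −0.34 (adjusted p = 0.43, limma).
CYCS probe A_72_P592869, with a log2 difference of 2.86: gctgtaccGtGagcacagatCtgtaaatta
CYCS probe A_72_P573694, with a log2 difference of −0.34: gctgtaccAtCagcacagatTtgtaaatta

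Few of the nuclear genes of energy metabolism were called, where 69 of all 10631 named genes had a called probe. Lists of this size can hold no called gene at that share. None of 34 nuclear complex I subunits had a called probe, and their median difference was −0.02. Among 35 nuclear subunits of complexes III and IV and ATP synthase, CYCS had a called probe, and the median was −0.04. Of 25 tricarboxylic acid cycle and pyruvate dehydrogenase genes, 2 were higher in F1, with a median of −0.10. MDH2, the mitochondrial malate dehydrogenase, was the gene of that list with a called probe, 1 of its 4. On that probe it had 14.10 ± 0.18 in F1 and 14.41 ± 0.26 in Large White (adjusted p = 0.0465, limma). All 4 MDH2 probes were lower in F1, from −0.35 to −0.15. The brightest differed by −0.30 and was not called (adjusted p = 0.104, limma). Of 27 genes of glycolysis and glycogen use, 4 were higher in F1, with a median of −0.10 and no gene called. PYGM, muscle glycogen phosphorylase, differed by −0.20 (adjusted p = 0.531), LDHB, a lactate dehydrogenase subunit, by 0.04 (adjusted p = 0.92), and PRKAG3, the muscle AMPK subunit, by 0.19 (adjusted p = 0.789), all by limma. PDK4, the kinase that inhibits pyruvate dehydrogenase, differed by −0.58 ± 0.64 (adjusted p = 0.818, limma), with F1 arrays from 9.11 to 16.66 and Large White arrays from 10.82 to 16.04. The PDK4 difference was 0.71 ± 0.85 at TN and −2.02 ± 0.89 at HS. The change between them had an unadjusted p of 0.0336 and an adjusted p of 0.938 (limma). The slow myosin MYH7 differed by −0.06 (adjusted p = 0.857, limma) and the fast myosin MYH4 by 0.003 (adjusted p = 0.987, limma), and no gene of the slow or fast fibre lists was called.

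Several genes rose in F1 outside these groups. PLEKHD1, a little-studied pleckstrin homology domain gene, had a difference of 1.11 ± 0.24 (adjusted p = 0.0203, limma). Its F1 arrays lay at 6.91, 7.34 and 7.82 (lowest, median, highest) and its Large White arrays at 5.58, 5.89 and 7.42. The 4 Large White arrays within the F1 range were TN replicates 1 and 2 and HS replicates 2 and 3, the same 4 as for the mitochondrial probes. TN replicate 2 and HS replicates 2 and 3 were all the Large White arrays of slide 2, so slide and pig cannot be told apart there. Within slides 1 to 4 the PLEKHD1 difference was 0.78, −0.24, 1.76 and 1.88. RGP1, a partner of a guanine nucleotide exchange factor in vesicle traffic, rose by 0.76 ± 0.13 (adjusted p = 0.0015, limma), with all 12 Creole arrays (6.86 to 7.37) above the highest Large White array (6.70). ART5, an ADP-ribosyltransferase, rose by 1.13 ± 0.27 (adjusted p = 0.044, limma) with 7 of 11 F1 arrays and 12 of 12 Creole arrays above every Large White array. PHF2, a histone demethylase, rose by 0.92, PDE7A, a cAMP phosphodiesterase, by 0.60, FNTB, the farnesyltransferase beta subunit, by 0.64 and BNIP3L, a mitophagy receptor, by 0.59. The other 4 probes of RGP1 lay between −0.22 and 0.13 and the other 5 of BNIP3L between −0.18 and 0.02, with none called. The largest rise of all belonged to an unnamed probe (A_72_P066171), by 3.15 ± 0.71 (adjusted p = 0.033, limma), with F1 arrays from 5.96 to 12.13 and Large White arrays from 5.58 to 10.72.

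Among immune genes, a probe with the human gene name HLA-E, a non-classical MHC class I molecule, fell by 2.02 ± 0.46 (adjusted p = 0.0341, limma). Its F1 arrays ran from 5.16 to 9.31 (median 8.07) and its Large White arrays from 8.34 to 9.96 (median 9.52), and it was well above background on 7 of 11 F1 arrays and on 12 of 12 Large White arrays. The pig class I gene SLA-6 fell by 0.49 ± 0.12 (adjusted p = 0.0412, limma). At TN and HS the differences were −1.14 ± 0.60 and −3.03 ± 0.63 for HLA-E, and −0.26 ± 0.15 and −0.74 ± 0.16 for SLA-6. The change between temperatures had an unadjusted p of 0.0363 for HLA-E and 0.0374 for SLA-6, and an adjusted p of 0.938 for each (limma). MIC-2, an MHC class I chain-related gene, rose by 0.86 ± 0.17 (adjusted p = 0.0131, limma) on 1 probe, and its other probe differed by 0.50 and was not called. On the called probe 7 F1 arrays lay between 7.96 and 8.55, above every Large White array, and 4 lay between 6.66 and 6.76. The Creole arrays of MIC-2 lay between 6.42 and 7.16, with a mean of 6.83 ± 0.22 beside 6.75 ± 0.20 in Large White. CCL24, an eosinophil chemokine, fell by 0.68 ± 0.14 (adjusted p = 0.0149, limma). MHC genes are highly polymorphic and similar to each other, so their probes may read more than 1 gene. Of 17 class I and peptide loading genes, SLA-6 was called and the median was −0.04. None of 9 class II genes was called, where 69 of all 10631 named genes had a called probe.

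Further genes that fell in F1 included AKAP12, a scaffold of protein kinases A and C, with differences from −0.71 to −0.34 on 6 probes, of which 4 were called. Its named probe had 8.38 ± 0.45 in F1 and 9.10 ± 0.30 in Large White (adjusted p = 0.00796, limma). OAZ3, an ornithine decarboxylase antizyme, fell on 2 of 3 probes, which have the same sequence, with differences of −1.22 and −1.15, while its other probe differed by −0.35 and was not called. The Creole arrays of OAZ3 lay between 5.09 and 5.59, the Large White arrays between 5.57 and 8.22, and the F1 arrays over both ranges, from 5.09 to 8.08. The named OAZ3 probe was well above background on 7 of 11 F1 arrays and on 12 of 12 Large White arrays. PAK1, a kinase of the actin cytoskeleton, fell by 1.12 ± 0.25 (adjusted p = 0.026, limma) and PARVB, an adaptor at integrin adhesions, by 0.76 ± 0.16 (adjusted p = 0.0149, limma). DCPS, the scavenger mRNA decapping enzyme, fell by 0.94 ± 0.21, and its Large White arrays lay between 9.96 and 10.44, whereas its F1 arrays ran from 7.98 to 10.19. The other DCPS probe differed by 0.07. A probe with the human name C1ORF50 fell by 0.63 ± 0.11 (adjusted p = 0.0031, limma), and BHLHE40, a transcriptional repressor of the circadian clock, by 0.65 ± 0.15 (adjusted p = 0.0369, limma). The other BHLHE40 probe differed by −0.35 and was not called.

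GSN, the actin-severing protein gelsolin, was the called gene among the connective tissue markers. On its called probe, 1 of 4, it had 15.75 ± 0.26 in F1 and 16.20 ± 0.23 in Large White (adjusted p = 0.0419, limma). The other 3 GSN probes differed by −0.42 to −0.40 and were not called. COL1A2, a chain of type I collagen, differed by −0.53 (adjusted p = 0.16, limma), and LUM, the proteoglycan lumican, by −0.33 (adjusted p = 0.251, limma). Of 34 extracellular matrix genes, 8 were higher in F1, with a median of −0.18. None was called, where 69 of all 10631 named genes had a called probe. Of the 12 adipocyte markers, 2 were higher in F1, with a median of −0.33 and no gene called, and FABP4, the adipocyte fatty acid-binding protein, differed by −0.78 (adjusted p = 0.20, limma). With the connective tissue marker mean as a covariate 83 probes were called, and with the adipocyte marker mean 75, both covariates chosen after seeing the data. IGF2, KIT and AKR1C1 were called with either covariate. Of the 34 called genes named here, 19 were not called with the connective tissue covariate: CYCS, SELENOF, ART5, PLEKHD1, ND1, ND2, COX1, COX3, CYTB, PDE7A, HLA-E, SLA-6, OAZ3, CCL24, BHLHE40, HSPA4, PRDX4, GSN and MDH2. GSN is itself 1 of the 14 genes averaged in that covariate, so its lost call there says little.

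**Figure D4:**
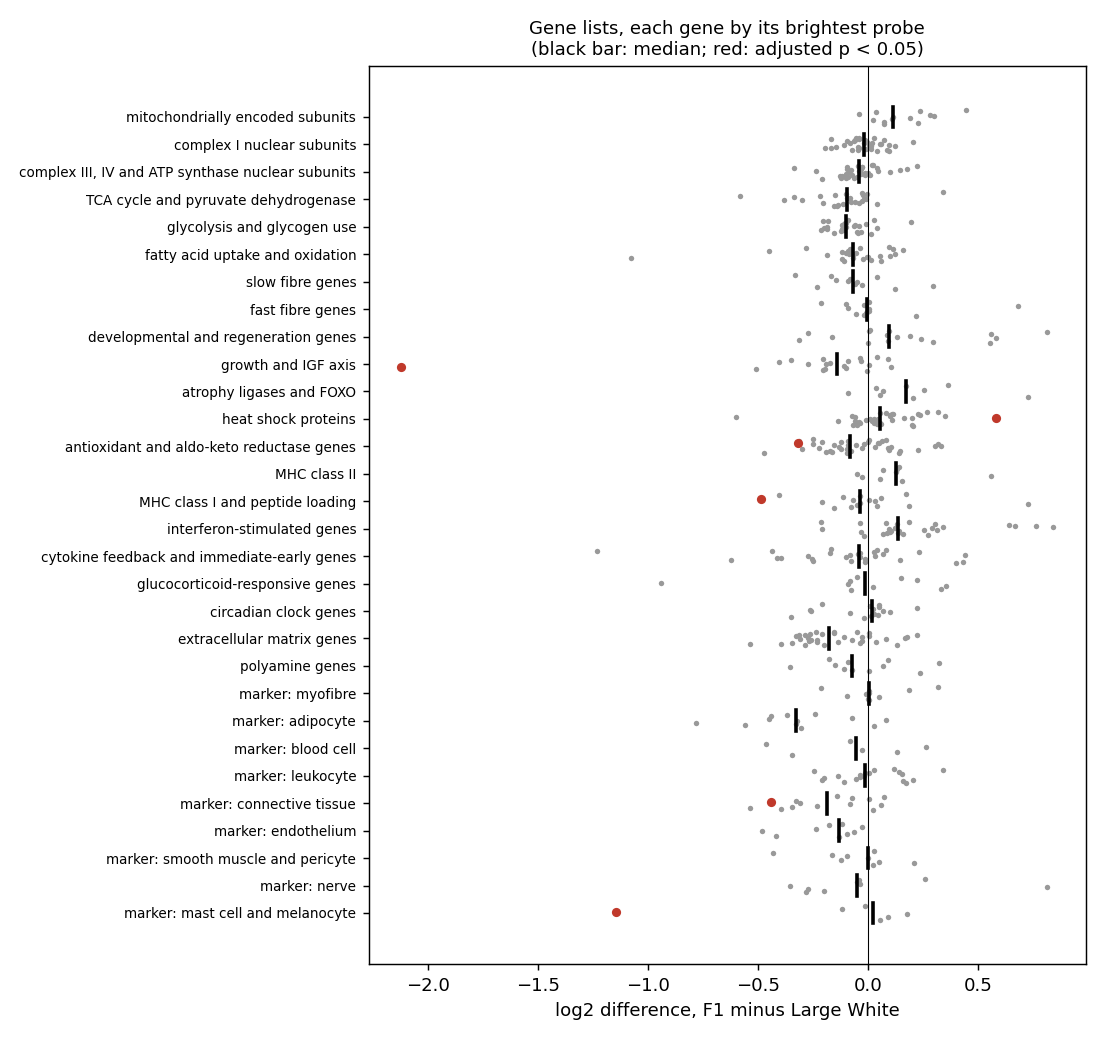
Log2 difference between F1 and Large White (x axis) of each measured gene, by its brightest probe, in the gene lists and marker lists (y axis), with black bars at list medians and red points at an adjusted p under 0.05. The extracellular matrix, connective tissue and adipocyte lists have medians of −0.18, −0.19 and −0.33, and the interferon-stimulated and atrophy lists of 0.14 and 0.17.

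In the heat shock, interferon, atrophy and cytokine feedback lists 1 gene was called, where 69 of all 10631 named genes had a called probe. HSPA4, a heat shock protein of the HSP110 family, rose by 0.58 ± 0.11 (adjusted p = 0.00669, limma), from 8.87 ± 0.29 in Large White to 9.46 ± 0.26 in F1, with 4 Large White arrays within the F1 range. Of 36 heat shock genes, 26 were higher in F1, with a median of 0.06 that became −0.05 when arrays were scaled on spike-in controls. Of 27 interferon-stimulated genes, 22 were higher and none was called, with MX2, an antiviral GTPase, at 0.76 (adjusted p = 0.06, limma). Of 9 atrophy genes, 8 were higher and none was called, with the ubiquitin ligase FBXO32 at 0.73 (adjusted p = 0.11, limma). Over all named genes 46.6% were higher in F1. The interferon and atrophy medians of 0.14 and 0.17 became 0.02 and 0.03 under spike-in scaling. SOCS3, the feedback inhibitor of cytokine signalling, differed by −1.23 ± 0.45 (adjusted p = 0.259, limma), with F1 arrays from 7.81 to 11.60 and Large White arrays from 8.83 to 12.56.

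Whether the breed difference was present at each temperature was asked with 1 mean per group. At TN, 14 probes were called (0.0344%), 2 higher in F1 (0.00492%) and 12 lower (0.0295%), among them 3 IGF2 probes, 2 AKAP12 probes and single probes of AKR1C1, C1ORF50, PARVB and ACOT6. At HS, 0 probes were called by limma (3096 at an unadjusted p under 0.05, smallest adjusted p 0.0792). Without F1 HS replicate 3, the array at the Large White level for IGF2, 17 probes were called at HS. The change of the F1 and Large White difference between TN and HS was itself called for 0 probes by limma (1891 at an unadjusted p under 0.05, smallest adjusted p 0.938). All 222 called probes had the same direction at TN and at HS. They were called on the TN and HS arrays together, which favours such agreement, so it is no separate test. For AKAP12 the difference was −1.07 ± 0.17 at TN and −0.31 ± 0.18 at HS, and the change between them had an unadjusted p of 0.00411 and an adjusted p of 0.938 (limma).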

How the data were processed

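One-colour Agilent 60-base oligonucleotide arrays were read by the authors with Feature Extraction 10.10.1.1, per the submitters' processing notes. The deposited table holds log2 values: the authors filtered expressed probes, quantile-normalised the median pixel intensity and took log2. It has 40649 probes, of which 59 single values are missing. The deposited scanner files hold intensity on a linear scale and gave slides, background calls, probe sequences and alternatives. Their rank correlation with the table was 1 on every array.

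Differences were estimated with limma 3.58.1 in R 4.3.3 on all 35 arrays with breed and temperature as terms, and with 1 mean per group for TN, HS and their difference. P-values were adjusted by Benjamini-Hochberg over all probes, at 0.05. The study's random terms for pen, slaughter day, father and mother were not used here. The number of arrays limits the precision. Of the table probes, 21985 carried 1 symbol (10631 genes), from the file's gene name or the reference tables.

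Named genes were the 14 largest rises and 14 largest falls among called probes with 1 symbol, by their probe of smallest p, every list member with a called probe and a fixed list. The members, lists and markers were chosen with earlier results of these data known. Array measures used 100000 resamples. The fits were tested on simulated data. Alternatives covered scaling, background, filters, arrays, covariates, weights and 1 probe per gene. Genome positions were not determined.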

Additional observations from a re-analysis of the deposited data

Results flagged for a closer look

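In 19 of 180 sets of 5 or 6 arrays of 1 group, taken over the 45 named genes, the highest or lowest array stood far from the others by Dixon's test, where chance gives about 1 in 20. All values here are log2 intensities. The library labelled F1 HS replicate 3 was the highest of its group for IGF2 (17.68, the others 14.90 to 15.34), ADAT3 (11.81) and MESP1 (13.06). F1 TN replicate 6 had 5 such values: it was the lowest for HLA-E (5.35, the others 8.07 to 9.31), PHF2 (8.15), PRKAG3 (9.42) and SLA-6 (6.84), and the highest for NPSR1 (7.26, the others 4.77 to 5.11). F1 HS replicate 2 was the lowest for MIC-2 (6.66) and the highest for SLA-6 (7.61), and F1 TN replicate 2 was the lowest for MYH7 (18.35).

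Among Large White arrays, TN replicate 5 was the highest for DCPS (10.44) and MSTN (8.54), TN replicate 1 for PHF2 (9.42), TN replicate 2 for COX1 (17.34) and HS replicate 1 for HSPA4 (8.97). The lowest were TN replicate 3 for AKAP12 (8.55), TN replicate 6 for MDH2 (14.23) and HS replicate 6 for OAZ3 (5.57, the others 7.41 to 7.80).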

How the results depend on the processing

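The labels pair no F1 pig with a Large White pig, so no paired analysis was made. Replicate numbers used here follow accession order. Against 222 probes called for F1 and Large White, median scaling gave 353 (84 higher, 269 lower), spike-in scaling 428 (39 higher, 389 lower, where the median of all probes was −0.09, and −0.22 at HS), no filter 144, array brightness as a covariate 335, the leukocyte marker mean 544, the connective tissue marker mean 83, the adipocyte marker mean 75, array weights 769 and 1 probe per gene 26. Under 75th percentile scaling 148 were called, 81 higher and 67 lower. Of the 222 probes, 136 were called under spike-in scaling and 72 with the connective tissue covariate. Slide as a block gave 179. At TN (14), the counts were 8 under 75th percentile scaling, 31 under median scaling, 7 under spike-in scaling, 8 with normexp, 27 with the 23 arrays only, 24 with brightness, 79 with the leukocyte mean, 9 with the connective tissue mean, 2 with the adipocyte mean, 232 with array weights and 4 with 1 probe per gene. At HS (0), they were 49 under spike-in scaling, 70 with array weights and 2 with 1 probe per gene. The change between TN and HS had 0 calls throughout. The cause of these shifts was not tested.

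Leaving out 1 array at a time gave 116 (without Large White HS replicate 4) to 286 (without Large White TN replicate 1) probes. The count was also more than 1.5 times smaller without F1 TN replicates 1 (124), 3 (142) and 5 (144), F1 HS replicates 1 (129), 2 (136), 4 (136) and 5 (145), and Large White TN replicates 4 (125) and 5 (136) and HS replicates 1 (141) and 6 (145). At TN the range was 3 (without Large White TN replicate 4) to 48 (without F1 TN replicate 6), at HS 0 to 17 (without F1 HS replicate 3), and for the change 0 to 0.

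None of the 34 called genes changed direction. Among named genes not called, the sign changed over the alternatives for PDK4 (−0.97 to 0.11), LDHB (−0.08 to 0.17), MYH7 (−0.12 to 0.01), MYH4 (−0.05 to 0.08) and MSTN (−0.0016 to 0.14), and over the leave-outs for NPSR1 (−0.01 to 0.24) and MYH4. IGF2, ADAT3, MESP1, KIT, AKR1C1, RGP1, AKAP12 and C1ORF50 were called under every alternative fitted and without any 1 array. Of the 34 called named genes, 15 were called with the connective tissue covariate, 19 with the adipocyte covariate, 24 under 75th percentile scaling and 25 with slide as a block. Calls lost in the most leave-outs were those of MDH2 (20 of 23), GSN (16), ART5, OAZ3 and PRDX4 (14 each), CYTB (13), SLA-6 (12), BHLHE40 (11), and CYCS and HLA-E (10 each). SELENOF lost its call in 7. Under spike-in scaling all 30 list medians were lower, and those of 6 lists turned from positive to negative: MHC class II, circadian clock, heat shock proteins and the mast cell, myofibre and smooth muscle markers. Those that moved by more than the spread between arrays were complexes III and IV and ATP synthase (−0.15), growth and IGF axis (−0.25), atrophy (0.0283), antioxidant (−0.18) and circadian clock (−0.10), and the nerve markers over all probes (−0.20).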
